A study of Mus musculus with 10 samples.

Results

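The pump genes of the mouse ovary described here encode the P-type ATPases and the V-type ATPase (V-ATPase). They were chosen by gene symbol from the deposited table, without any limit on level or change, and the family was singled out after the counts of all 10 ovaries had already been analysed, so the values below describe these ovaries. The rule found 68 genes of 55487, of which 42 belong to the P-type pumps and 25 to the V-ATPase. The remaining gene, Atp6v1fnb, carries a V-ATPase symbol as a neighbour of Atp6v1f and had no count. The ovaries came from C57BL/6J mice, of which 4 were 8 weeks old (Control), 3 were old and given saline (Aged) and 3 were old and treated (Aged+CF). The labels put both old groups at 11 months, and the study's methods place them a month younger when they were divided into groups, before treatment. Aged+CF mice received 200 μL of cell-free fat extract (CEFFE, the soluble protein fraction of adipose tissue, at 3 μg/μL) through the tail vein every 2 days for 2 weeks, while Control and Aged mice were given saline in the same volume. All mice, Control included, had also been injected with 10 IU of the gonadotropin PMSG 48 h before the ovaries were taken, so no ovary was in an unstimulated state. RNA was read in a library of its own for each ovary, and counts on genes ranged from 15761789 to 21318254 per library.

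P-type ATPases form a phosphorylated intermediate while they carry an ion or lipid across a membrane. They include the Na,K-ATPase, which sets the sodium and potassium gradients, the Ca-ATPases of the endoplasmic reticulum (SERCA), plasma membrane (PMCA) and secretory pathway (SPCA), the copper pumps, and the flippases that turn phospholipids between leaflets. The V-ATPase is a rotary pump in which a cytosolic V1 sector hydrolyses ATP and a membrane V0 sector passes protons, and it acidifies lysosomes, endosomes and secretory vesicles. In the ovary, acidic lysosomes break down lipoprotein taken up by steroid-producing cells and the remains of dead follicle cells taken up by macrophages.

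Several V-ATPase genes carry near their start site the palindrome CACGTG, the core of the motif bound by Tfeb and its relatives, transcription factors of lysosomal genes. The stretches below are shown because they hold every match among the V-type windows. They run 5′ to 3′ on the strand of the gene in GRCm38.p6 and come from RefSeq promoter windows of 300 bases, from 250 bases before the start site to 50 after it. Capitals mark CACGTG, or TCACGTGA where both flanking bases were present. The stretch of Atp6v0b (proteolipid c'' of V0) is chr4:117887310-117887409 on the minus strand, that of Atp6v0d1 (subunit d of V0) is chr8:105566045-105566144 on the minus strand, that of Atp6v0e (subunit e of V0) is chr17:26676316-26676415 on the plus strand, and that of Atp6v1a (the catalytic A subunit of V1) is chr16:44139340-44139439 on the minus strand.
Atp6v0b: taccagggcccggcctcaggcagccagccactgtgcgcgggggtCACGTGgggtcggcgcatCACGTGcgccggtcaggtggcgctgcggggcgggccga
Atp6v0d1: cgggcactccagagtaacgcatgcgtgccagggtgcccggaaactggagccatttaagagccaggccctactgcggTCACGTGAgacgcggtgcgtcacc
Atp6v0e: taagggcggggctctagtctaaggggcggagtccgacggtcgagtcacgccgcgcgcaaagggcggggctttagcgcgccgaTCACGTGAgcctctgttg
Atp6v1a: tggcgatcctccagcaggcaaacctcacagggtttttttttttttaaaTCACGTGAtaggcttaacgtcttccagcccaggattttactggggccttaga

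Counted from the start site as 0, the first base of CACGTG lies at -36 and -18 in Atp6v0b, -3 in Atp6v0d1, 3 in Atp6v0e and -131 in Atp6v1a. Windows were found for 45 of the 68 pump genes. CACGTG occurred in 4 of 21 V-type windows (19.05%) and in 3 of 36 P-type windows (8.33%), namely those of Atp1b3, Atp2b1 and Atp7a, against 7.15% of all 32851 windows. TCACGTGA, which contains CACGTG, occurred in 3 V-type windows (14.29%) and 2 P-type windows (5.56%), against 0.97% of all windows. Both motifs read the same on either strand, and a match is a description of the letters only.

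Counts were scaled by TMM into CPM (read counts relative to the scaled library size), which compare a gene between ovaries, while the deposited FPKM, which also divide by gene length, were used to compare genes with each other. Values of single ovaries are given in the order 31, 32, 33 and 34 for Control, 31, 33 and 34 for Aged, and 30, 32 and 34 for Aged+CF, as numbered in the labels. Of the 68 genes, 58 passed edgeR's filter on low counts (37 P-type and 21 V-type), 3 had no count in any ovary (Atp6v1e2, Atp6v1g3 and Atp6v1fnb), and 7 had too few counts to be tested (Atp1a4, Atp1b4, Atp8b3, Atp13a4, Atp13a5, Atp6v0a4 and Atp6v1c2). A gene that passed through the group where it is high was bound to differ, so counts over tested genes are given beside the same count over all 18956 genes tested.

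Some ovaries stood apart in ways that touch these genes. The summed CPM of 10 oviduct epithelium markers was 425 in Control 33 and 329 in Aged 34, and between 12.2 and 43.9 in the other ovaries. Oocyte markers summed to 467 to 646 CPM in Control, 15.8 to 133 in the Aged ovaries and 175 to 281 in Aged+CF. At adjusted p and a fold of 1.5, 12 of 14 tested markers were lower in Aged, against 6.06% of all genes tested. Luteal and steroidogenic markers summed to 7521 to 14709, 20142 to 48025 and 17730 to 27632 CPM, with the highest sum in Aged 33. By the same rule 9 of 10 were higher in Aged, against 5.0% of all genes tested. Macrophage markers summed to 557 to 637, 873 to 1700 and 783 to 904 CPM, and markers of foam cells and multinucleated macrophages to 157 to 207, 373 to 903 and 341 to 430 CPM, both highest in Aged 34. Granulosa markers summed to 5143 to 8179, 3367 to 4505 and 2966 to 5140 CPM, with 0 of 10 past the adjusted threshold in either direction. In whole ovaries, more cells of a type and more RNA per cell cannot be told apart, and the part of these markers in the pump gene values was not tested.

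The V-type genes were higher in the Aged ovaries as a group, whereas the P-type genes were spread around no change. V-type reads made up 0.1371% to 0.1527% of all counts in Control, 0.1848% to 0.227% in the Aged ovaries and 0.1488% to 0.1755% in Aged+CF. The highest share, that of Aged 33, had an exact 95% binomial interval of 0.2246% to 0.2293%, which covers counting error only. The Aged ovaries thus lay above all others without overlap. All pump genes together took 0.4547% to 0.514%, 0.5326% to 0.5528% and 0.4798% to 0.5259% of counts. Relative to the mean of the Control ovaries, the median V-type gene stood at 0.39, 0.85 and 0.41 on the log2 scale in the Aged ovaries and at 0.04, 0.27 and 0.08 in the Aged+CF ovaries, and the Control ovaries ranged from -0.04 to 0.04. Aged 33, which was highest, was also the ovary with the highest luteal and steroidogenic sum.

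**Figure D1:**
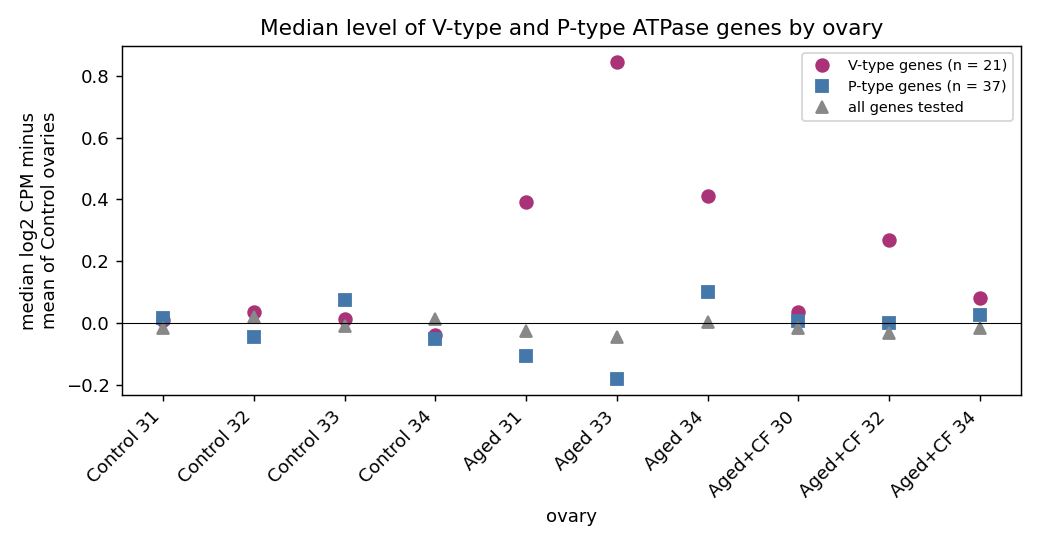
Median log2 CPM of the 21 V-type genes (circles), the 37 P-type genes (squares) and all genes tested (triangles) in each ovary, minus the mean of the Control ovaries, on the vertical axis, with the 10 ovaries on the horizontal axis. The V-type median is 0.39, 0.85 and 0.41 in the 3 Aged ovaries and at most 0.27 in the others, while the P-type median lies between -0.18 and 0.10 throughout.

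In Aged vs Control, the question was which pump genes differ with age. With a limit of 1.5 on the fold change and of 0.05 on the adjusted p of edgeR's quasi-likelihood test, 11 of the 58 tested pump genes were higher in Aged, against 5.0% of all genes tested, and 2 were lower, against 6.06%. Of the 11, 9 were among the 21 V-type genes. Without the limit on fold, 15 pump genes were higher (background 7.14%) and 3 were lower (background 8.3%), and 13 of the 15 were V-type genes. At the unadjusted p and the fold of 1.5, 14 were higher (background 8.79%) and 4 were lower (background 9.44%). In 17 of the 58 genes, 14 of them V-type, every Aged ovary lay above every Control ovary, as in 11.8% of all genes tested. The median log2 fold change was 0.54 over the V-type genes and 0.01 over the P-type genes, beside -0.001 over all genes tested. With library totals in place of TMM, also added after seeing the data, 8 were higher and 3 lower at adjusted p and 9 higher and 5 lower at unadjusted p. The count of 13 V-type genes higher at any fold was 7 without Control 34, and 15 without both libraries high in oviduct markers, a further alternative added in this way.

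Of the 10 tested V1 genes, 5 rose in Aged, 1 fell and 4 did not pass the adjusted threshold. Over all genes tested, 7.14% rose and 8.3% fell at adjusted p and any fold. Atp6v1e1, subunit E of the peripheral stalk, was at 106, 123, 125 and 107 CPM in Control, 195, 240 and 167 in the Aged ovaries, and 110, 138 and 125 in Aged+CF. The Aged ovaries were all above the 7 others, with a log2 fold change of 0.80 (SE 0.13, edgeR adjusted p = 0.00764) over Control. Atp6v1h, subunit H that couples V1 to V0, had 60.8, 61.7, 62.0 and 57.3 CPM in Control, 105, 135 and 87.6 in the Aged ovaries, and 69.7, 90.2 and 71.5 in Aged+CF. The log2 fold change with age was 0.85 (SE 0.14, edgeR adjusted p = 0.0078), and Aged+CF 32 lay within the Aged range. Atp6v1a, the catalytic A subunit whose promoter stretch is shown above, had 87.3, 75.4, 101 and 84.0 CPM in Control, 136, 173 and 132 in the Aged ovaries, and 122, 147 and 116 in Aged+CF. It rose by a log2 fold change of 0.76 (SE 0.14, edgeR adjusted p = 0.00949) with age, and its Aged+CF values were all above Control and overlapped with Aged.
Atp6v1b2 and Atp6v1f, subunit B and a part of the central rotor, rose by less than the fold of 1.5, with log2 fold changes of 0.43 (edgeR adjusted p = 0.0159) and 0.54 (edgeR adjusted p = 0.0318). Atp6v1c1, Atp6v1d and Atp6v1g1 had log2 fold changes of 0.32, 0.36 and 0.49, with edgeR adjusted p of 0.105, 0.0637 and 0.0802. Exons of Atp6v1e1 overlap Slc25a18 and those of Atp6v1h overlap Rgs20 on the other strand. Other genes named below with such overlaps include Atp6v1g2 (with Nfkbil1), Atp6v0a2, Atp6v0b, Atp11a and Atp12a. Since counting by strand is not stated, reads of such pairs cannot be told apart.

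Atp6v1b1 (chr6:83742990-83758855 in GRCm38), the B subunit known from proton-secreting cells of the kidney, inner ear and epididymis, went the other way. It had 1.63, 3.80, 1.93 and 3.02 CPM in Control, 0.239, 0.564 and 0.386 in the Aged ovaries, and 0.688, 1.21 and 0.844 in Aged+CF. These values rest on few reads, with 4, 8 and 7 in the Aged ovaries and 12, 21 and 18 in Aged+CF. The groups did not overlap in any pair, and Aged was lower than Control by a log2 fold change of -2.71 (SE 0.44, edgeR adjusted p = 0.00687). By FPKM it made up 2.37% ± 0.837 of the B subunit transcripts in Control (SD, n = 4), 0.271% ± 0.0857 in the Aged ovaries and 0.800% ± 0.234 in Aged+CF (n = 3 each), and Atp6v1b2 the rest. Of 9 markers of proton-secreting epithelial cells, 3 were tested. At adjusted p and a fold of 1.5, 1 was lower in Aged, against 6.06% of all genes tested. This was Rhbg, an ammonia transporter, at 0.409 to 0.873 CPM in Control, 0.165 to 0.298 in the Aged ovaries and 0.230 to 0.375 in Aged+CF, with a log2 fold change with age of -1.45 (SE 0.40, edgeR adjusted p = 0.0379). Rhbg had 5, 4 and 3 reads in the Aged ovaries. Car12 and Hepacam2 had log2 fold changes of 0.72 and 0.52 (edgeR adjusted p = 0.508 and 0.597). Rhcg, not tested, had 0.187 to 0.424 CPM in Control, 1.67, 1.41 and 0.0551 in the Aged ovaries and 0.287 or less in Aged+CF. Foxi1 and Slc26a4 had no count in any ovary. The summed level of the list was 4.93 to 10.8 CPM in Control, 4.87 to 24.0 in the Aged ovaries and 5.17 to 8.94 in Aged+CF, and its part in the Atp6v1b1 values was not tested. Atp6v1g2, a G subunit known from neurons, was at 3.23 to 4.36 CPM in Control, 3.64 to 4.12 in the Aged ovaries and 4.36 to 7.93 in Aged+CF, and its log2 fold change with age was 0.02 (edgeR adjusted p = 0.966).

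Of the 8 tested V0 genes, all were higher in Aged than in Control, as were 9465 of all 18956 genes tested. At adjusted p and any fold, 6 of the V0 genes were higher, against 7.14% of all genes tested. Atp6v0d2 (chr4:19876841-19922605, positions in GRCm38), the d subunit known from osteoclasts and macrophages, changed most among the V0 genes. It had 12.0, 8.98, 11.2 and 10.0 CPM in Control, 30.4, 30.4 and 68.8 in the Aged ovaries, and 21.9, 15.4 and 18.8 in Aged+CF. Each group was apart from the others, and the log2 fold change with age was 2.04 (SE 0.28, edgeR adjusted p = 0.00497). The highest value, in Aged 34, was in the ovary with the highest foam cell and macrophage sums. Aged 34 also had the highest sums of smooth muscle, adipocyte, neuron and surface epithelium markers, and a high oviduct marker sum. The part of any of these in the Atp6v0d2 values was not tested. The share of Atp6v0d2 in d subunit FPKM was 8.70% ± 1.27 in Control, 22.3% ± 8.05 in the Aged ovaries and 14.8% ± 3.38 in Aged+CF, with Atp6v0d1 as the remainder.
Atp6v0a2, an a subunit that forms part of the proton path, had 63.0, 59.4, 66 and 61.0 CPM in Control, 100, 112 and 101 in the Aged ovaries, and 86.1, 71.1 and 66.7 in Aged+CF. The 3 groups did not overlap, and its log2 fold change was 0.74 (SE 0.10, edgeR adjusted p = 0.00497). Atp6v0c, which forms the proteolipid ring, had 82.7 to 93.6 CPM in Control, 168, 195 and 126 in the Aged ovaries, and 76.8, 139 and 138 in Aged+CF, a log2 fold change of 0.88 (SE 0.21, edgeR adjusted p = 0.0212). Atp6v0e had 54.0 to 61.4 CPM in Control, 76.4, 121 and 85.9 in the Aged ovaries, and 68.6, 75.5 and 54.7 in Aged+CF, with a log2 fold change of 0.70 (SE 0.16, edgeR adjusted p = 0.0203). The adjusted call was lost without Aged 33 for Atp6v0c (0.76) and Atp6v0e (0.51), without Control 34 for both (0.87 and 0.70), and without Control 32 or 33 for Atp6v0c (0.91 and 0.85).
Atp6v0d1 and Atp6v0a1 rose by log2 fold changes of 0.38 and 0.35 (edgeR adjusted p = 0.0201 and 0.0476), and Atp6v0b had 0.41 (edgeR adjusted p = 0.111). Atp6v0e2, the V0 gene with the highest mean level at 61.1 FPKM over all ovaries, varied most within groups. It had 163, 103, 178 and 91.8 CPM in Control, 376, 329 and 106 in the Aged ovaries, and 141, 175 and 103 in Aged+CF, so Aged 34 lay among the Control values (log2 fold change 1.01, SE 0.40, edgeR adjusted p = 0.114). Its unadjusted call was lost without Aged 31 (0.73), Aged 33 (0.88), Control 32 (0.90) or Control 34 (0.87). At adjusted p it passed with DESeq2's Wald test, without Aged 34, and without both libraries high in oviduct markers. Among the a subunits, no share moved as far. Atp6v0a2 had 26.0% ± 1.71 of the summed FPKM of the 4 a subunits in Control and 32% ± 4.13 in Aged, and Tcirg1, the a3 subunit that its symbol leaves outside the 68 genes, had 40.5% ± 4.08 and 37% ± 5.19.

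Both larger accessory genes rose. Atp6ap2, the prorenin receptor, which assists V-ATPase assembly, had 66.6, 61.7, 70.3 and 66.5 CPM in Control, 104, 121 and 88.2 in the Aged ovaries, and 73.2, 77.5 and 64.4 in Aged+CF. Aged did not overlap with either group, and its log2 fold change was 0.65 (SE 0.115, edgeR adjusted p = 0.00894), which without Aged 33 was 0.56 and below the fold threshold. Atp6ap1, an assembly factor of V0, had 126, 91.5, 92.2 and 92.1 CPM in Control, 144, 210 and 123 in the Aged ovaries, and 98.0, 132 and 106 in Aged+CF. Control 31 overlapped with Aged, and the call (log2 fold change 0.67, SE 0.19, edgeR adjusted p = 0.0449) was lost when any ovary other than Control 31 or Aged 34 was left out, with values from 0.44 without Aged 33 to 0.76 without Aged 31. The related Atp6ap1l was at 0.761 to 1.43 CPM in Control and 0.353 to 0.537 in Aged, a log2 fold change of -1.26 (SE 0.40, edgeR adjusted p = 0.0593).

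**Figure D2:**
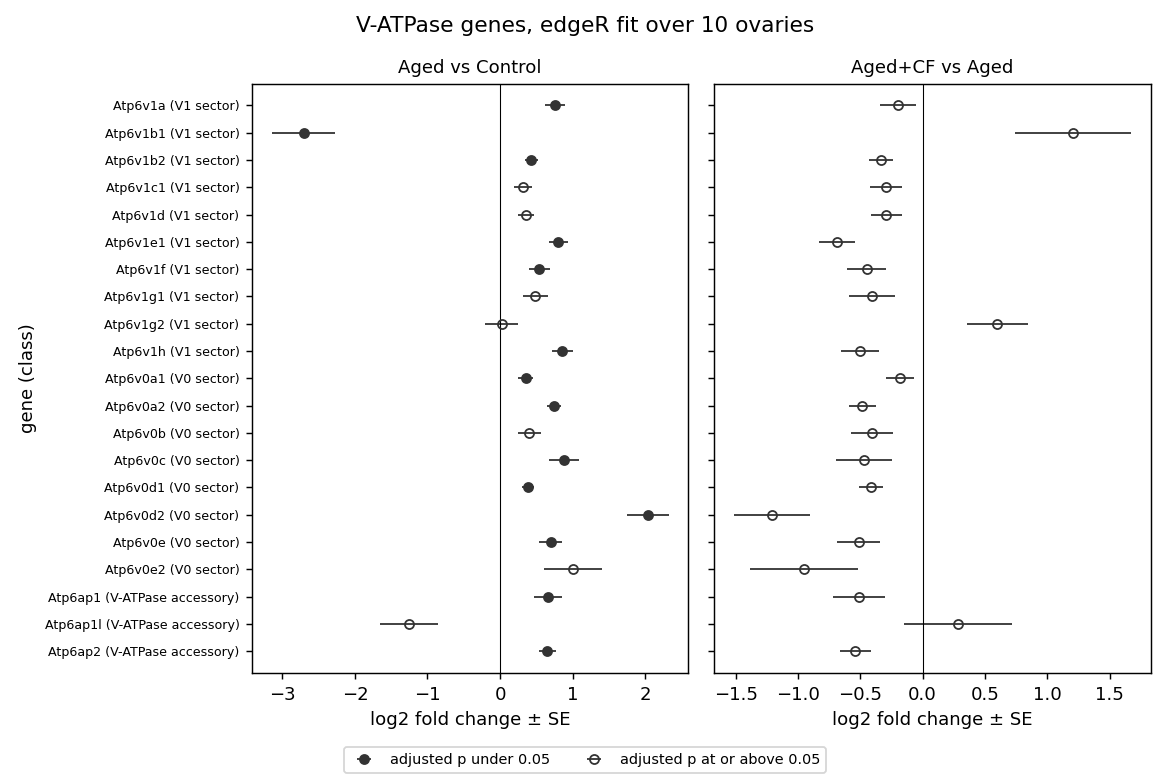
Log2 fold change ± SE of the 21 tested V-type genes, ordered by sector on the vertical axis, in Aged vs Control (left) and Aged+CF vs Aged (right), with filled circles for an adjusted p under 0.05. In Aged vs Control 13 genes are filled on the right of 0 and Atp6v1b1 is filled on the left at -2.71, and in Aged+CF vs Aged no circle is filled and all but Atp6v1b1, Atp6v1g2 and Atp6ap1l lie left of 0.

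By level, the V-type genes formed a common and a rare set. A limit of 5 FPKM over all ovaries, chosen after the values were seen, left 18 genes above it, and the 3 other tested genes (Atp6v1b1, Atp6v1g2 and Atp6ap1l) were at 0.708 FPKM or less. Atp6v1g1 had the highest mean in V1 at 80.0 FPKM, and Atp6ap2 the highest among accessory genes at 28.5 FPKM. In Aged vs Control, the log2 fold changes of the 18 ranged from 0.32 to 2.04 with a median of 0.66. In Aged+CF vs Aged they ranged from -1.21 to -0.18 with a median of -0.46, and both comparisons contain the same Aged ovaries. With library totals in place of TMM, which moved the median of all genes in Aged vs Control to -0.126, the 18 genes were again all higher in the Aged ovaries and all lower in Aged+CF.

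Of the 3 tested beta chains of the Na,K-ATPase, which carry the pump to the cell surface, Atp1b2 fell from 374, 416, 424 and 440 CPM in Control to 332, 300 and 279 in Aged, without overlap, and was at 293, 283 and 307 in Aged+CF. The fall with age was a log2 fold change of -0.44 (SE 0.10, edgeR adjusted p = 0.0166), less than the fold of 1.5. Atp1b3, the most abundant beta chain, was at 60.5 FPKM over all ovaries and had a log2 fold change of 0.03 (SE 0.11, edgeR adjusted p = 0.899).

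**Figure D3:**
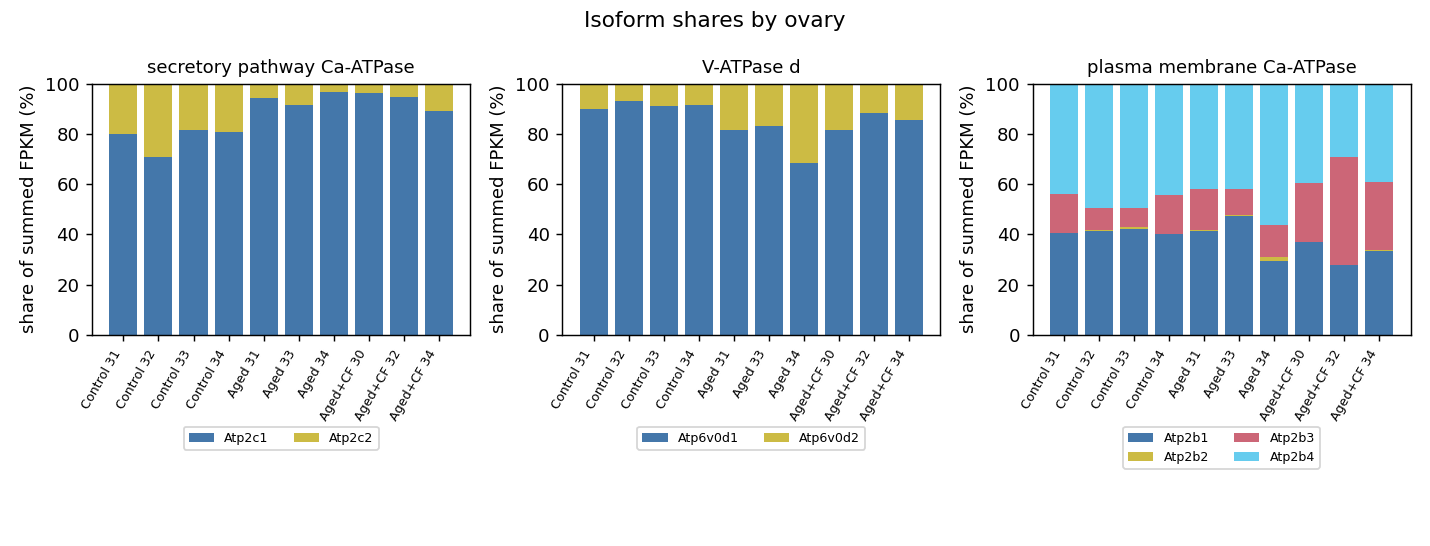
Share of the summed FPKM (%, vertical axis) of the secretory pathway Ca-ATPases, the V-ATPase d subunits and the plasma membrane Ca-ATPases in each of the 10 ovaries (horizontal axis), stacked by gene. Atp2c2 has 18.5% to 29.2% of the first family in Control and 3.37% to 10.7% in the other 6 ovaries, Atp6v0d2 has 16.9% to 31.5% of d in Aged, and Atp2b3 has 23.4% to 43.2% of the plasma membrane Ca-ATPases in Aged+CF and at most 16.1% elsewhere.

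The Ca-ATPases showed 1 change at adjusted p with age. Atp2c2 (chr8:119700009-119757717), the second secretory pathway Ca-ATPase, had 4.38, 5.67, 3.90 and 3.60 CPM in Control, 1.13, 1.48 and 0.607 in the Aged ovaries, and 0.688, 0.919 and 2.06 in Aged+CF. All 6 older ovaries were below Control, and the log2 fold change in Aged was -2.04 (SE 0.43, edgeR adjusted p = 0.0155). Its share of SPCA FPKM was 21.7% ± 4.99 in Control, 5.99% ± 2.68 in the Aged ovaries and 6.48% ± 3.72 in Aged+CF, with the more common Atp2c1 at 4.79 FPKM over all ovaries and a log2 fold change of 0.10 (SE 0.10, edgeR adjusted p = 0.576). Of the SERCA genes, Atp2a2 was dominant at 35.1 FPKM with 83.2% to 91.1% of the family in every ovary (log2 fold change -0.22, SE 0.11, edgeR adjusted p = 0.187), and the muscle form Atp2a1 and the form Atp2a3, known from blood cells and epithelia, had -0.97 and 0.20 (edgeR adjusted p = 0.162 and 0.629). Atp2b4 was the most abundant PMCA at 5.76 FPKM, followed by Atp2b1 at 5.03, with log2 fold changes of -0.21 and -0.27 (edgeR adjusted p = 0.417 and 0.326).

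None of the 14 tested flippases and 3 tested P5 genes passed the adjusted threshold in edgeR with age, and the flippase log2 fold changes ranged from -0.45 to 0.90. Atp9a was the most abundant at 13.0 FPKM (log2 fold change -0.11, SE 0.12, edgeR adjusted p = 0.602). At the unadjusted threshold Atp11a, a plasma membrane flippase of phosphatidylserine, and Atp8b4 were higher. Atp11a had 130, 76.6, 120 and 81.0 CPM in Control and 168, 192 and 106 in Aged, with overlap (log2 fold change 0.61, SE 0.24, edgeR adjusted p = 0.119). This call was lost without Control 32 (0.49), Control 34 (0.51), Aged 31 (0.58) or Aged 33 (0.46). Atp8b4 had 1.56 to 3.50 CPM in Control and 3.60 to 5.24 in Aged (log2 fold change 0.90, SE 0.29, edgeR adjusted p = 0.0645). Atp13a2, a lysosomal polyamine exporter, was the most abundant P5 gene at 18.4 FPKM, and Aged 34 at 273 CPM stood above all other ovaries, which lay between 117 and 168 (log2 fold change 0.24, SE 0.22, edgeR adjusted p = 0.509). Of the copper pumps, Atp7a had 4.07 FPKM and a log2 fold change of -0.06 (SE 0.16, edgeR adjusted p = 0.833), and Atp7b was below 1 CPM in every ovary.

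**Figure D4:**
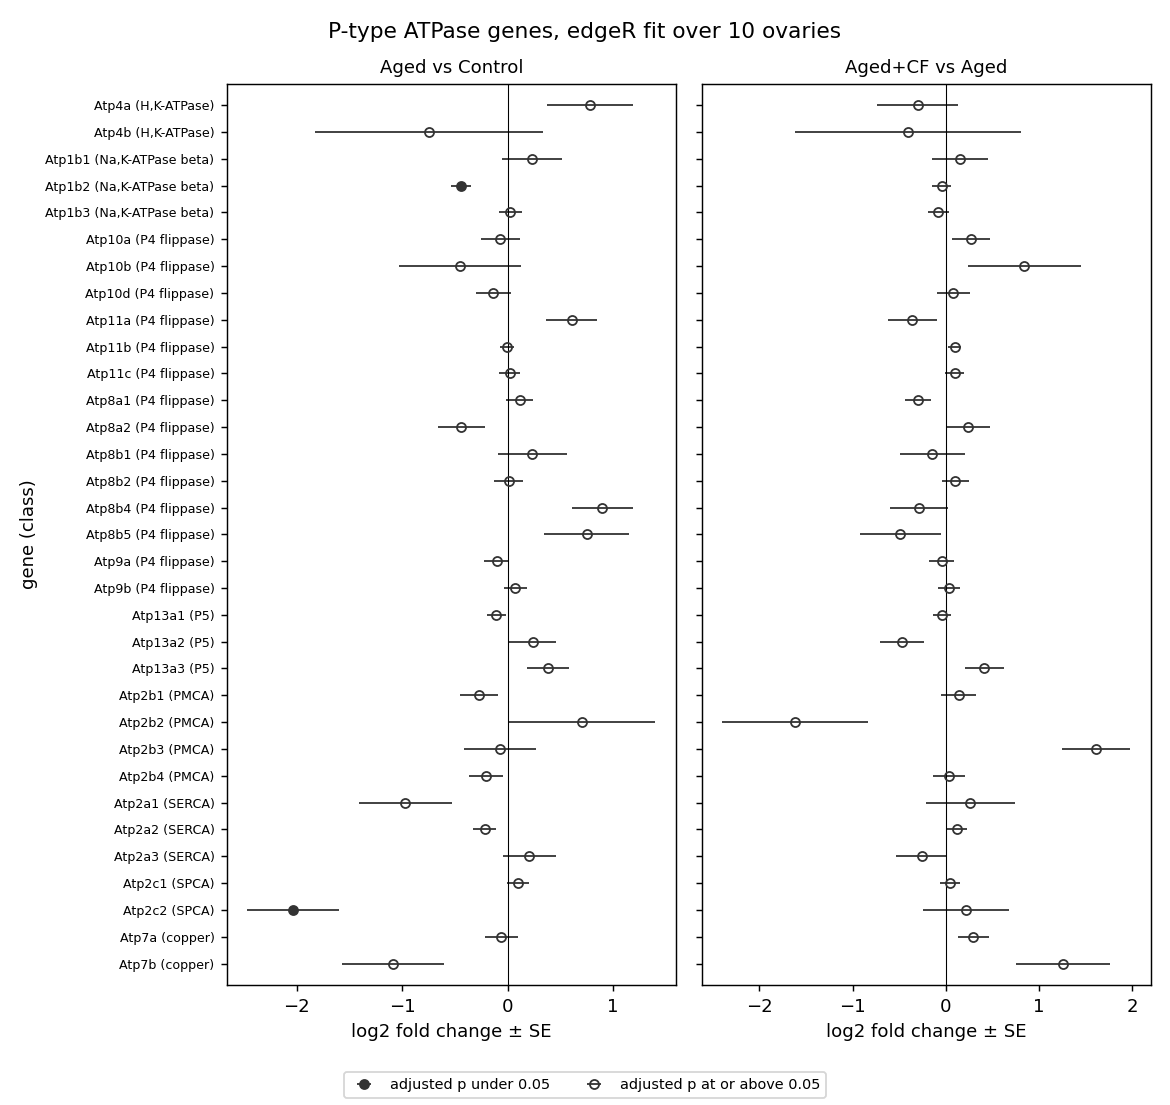
Log2 fold change ± SE of most of the tested P-type genes, Atp12a not among them, ordered by class on the vertical axis, in Aged vs Control (left) and Aged+CF vs Aged (right), with filled circles for an adjusted p under 0.05. Atp1b2 at -0.44 and Atp2c2 at -2.04 are the filled circles on the left, and no circle is filled on the right, where Atp2b3 stands at 1.61.

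Atp12a (chr14:56365068-56388550), the H,K-ATPase of colon and airway rather than stomach, is counted among the calls above but given as a description, since its pattern was known when the family was chosen. It had 0.875, 2.24, 3.70 and 1.01 CPM in Control, 4.59, 7.41 and 30.3 in the Aged ovaries, and 0.803, 0.574 and 2.34 in Aged+CF. The highest Control ovary and the highest Aged ovary were the pair with high oviduct marker sums, and without Aged 34 the log2 fold change with age fell from 2.84 to 1.64. Aged 31 and Aged 33, with oviduct marker sums of 15.8 and 12.2 CPM, were also above every Control ovary. With both libraries high in oviduct markers left out, Atp12a passed at adjusted p in edgeR. Its adjusted call was lost under 6 of 17 alternatives. These were without Aged 34, without Control 31, 32 or 34, with only the compared groups, and with the replicate number as a block. The part of oviduct tissue in these values was not tested. Atp13a5, Atp6v0a4 and Atp2b2 were also highest in Control 33 and Aged 34. Atp13a5 had 91 counts in Control 33 and 49 in Aged 34, and at most 5 in each of the others. Atp6v0a4 had 25 and 12 counts there and at most 10 elsewhere, and Atp2b2 had 1.98 and 4.08 CPM there and 0.230 to 1.08 elsewhere. The gastric chain Atp4a was at 1.01 to 3.16 CPM throughout and its partner Atp4b at 1.47 CPM or less.

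**Figure D5:**
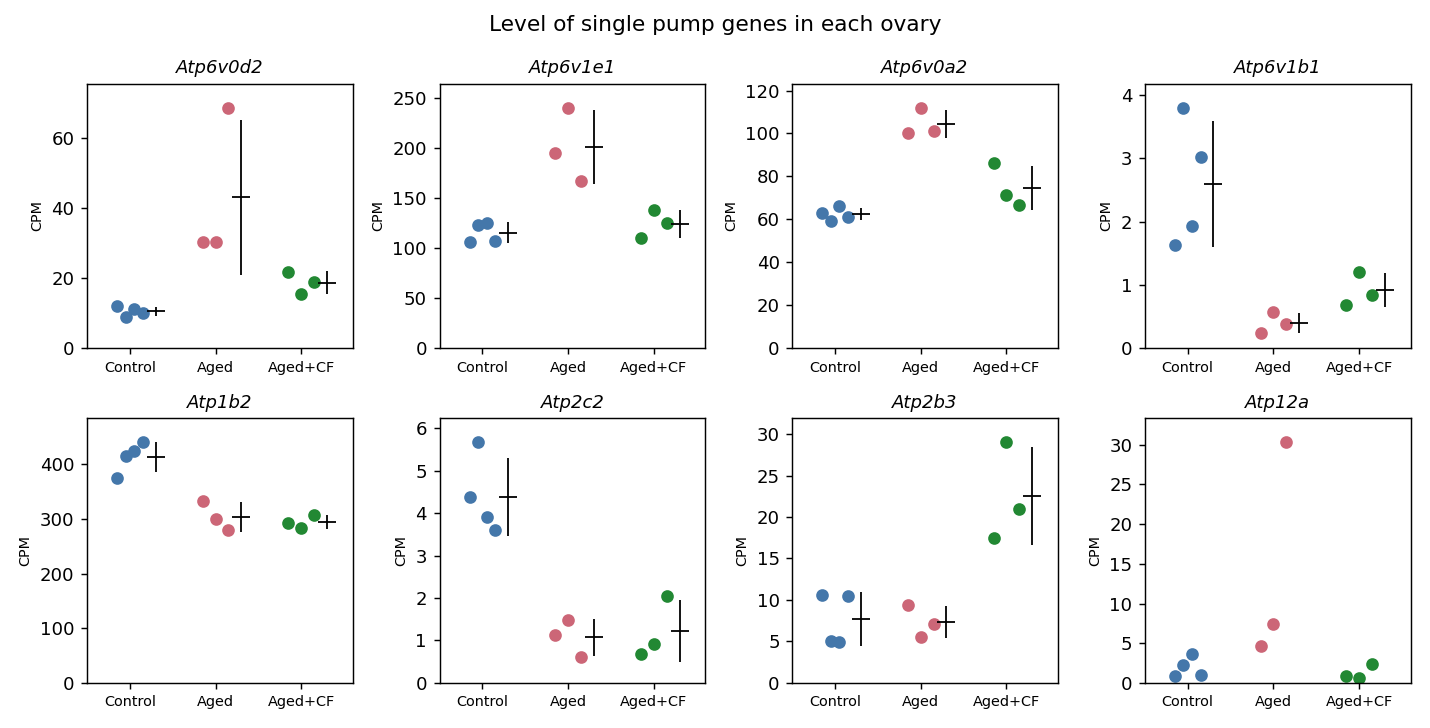
Level in CPM (vertical axis, from 0) of 8 pump genes in each ovary, by group on the horizontal axis, with dots for single ovaries and a bar for the mean ± SD of each group except for Atp12a. Atp6v0d2, Atp6v1e1 and Atp6v0a2 are higher in every Aged ovary than in any other, Atp6v1b1 is lowest in Aged, Atp1b2 and Atp2c2 are low in Aged and Aged+CF, and Atp2b3 is at 17.5 to 29.0 in Aged+CF and at most 10.6 elsewhere.

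Aged+CF vs Aged asked which pump genes differed after CEFFE. At adjusted p and a fold of 1.5, 0 of the 58 genes passed in edgeR, beside 0.00528% of all genes tested. DESeq2's Wald test called 4 (Atp12a, Atp2b3, Atp6v0d2 and Atp6v1e1). At the unadjusted p and the fold of 1.5 edgeR gave 7, of which 4 were higher in Aged+CF (Atp2b3, Atp6v1b1, Atp6v1g2 and Atp7b, background 3.91%) and 3 were lower (Atp12a, Atp6v0d2 and Atp6v1e1, background 4.05%). Without Aged 34, 4 genes passed at adjusted p (Atp6ap2, Atp6v0e2, Atp6v1e1 and Atp6v1h) and 13 at unadjusted p. At the unadjusted p without a limit on fold, 14 genes were lower in Aged+CF, 13 of them V-type (background 8.27%), and 4 were higher (background 8.06%). The 13 were 8 without Aged 33 and 16 without both libraries high in oviduct markers. Every Aged ovary lay above every Aged+CF ovary in 11 of the 58 genes, 9 of them V-type, as in 8.39% of all genes tested. The median log2 fold change was -0.41 over the V-type genes, 0.04 over the P-type genes and -0.02 over all genes.

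The values of Atp6v0d2, Atp6v1e1 and Atp6v0a2 given above lay lower in all 3 Aged+CF ovaries than in any Aged ovary. Their log2 fold changes in Aged+CF vs Aged were -1.21 (SE 0.30), -0.69 (SE 0.145) and -0.48 (SE 0.11), with edgeR adjusted p of 0.161, 0.151 and 0.161. The unadjusted call of Atp6v1e1 was lost without Aged 33, at -0.54. For Atp6ap2 and Atp6v0d1, also without overlap, the log2 fold changes were -0.54 (SE 0.12) and -0.41 (SE 0.10), each with an edgeR adjusted p of 0.161. For Atp6v1a the log2 fold change was -0.20 (SE 0.15, edgeR adjusted p = 0.523).
Atp2b3 (chrX:73503086-73571005), the PMCA known mainly from brain, had the most positive fold change of the pump genes in Aged+CF vs Aged. It had 10.6, 4.99, 4.87 and 10.5 CPM in Control, 9.42, 5.50 and 7.11 in the Aged ovaries, and 17.5, 29.0 and 21 in Aged+CF. The Aged+CF ovaries were above all 7 others, with a log2 fold change of 1.61 (SE 0.36, edgeR adjusted p = 0.161) over Aged and 1.54 (SE 0.33, edgeR adjusted p = 0.106) over Control. Its share of PMCA FPKM was 11.9% ± 4.25 in Control, 13.2% ± 2.83 in the Aged ovaries and 31.3% ± 10.5 in Aged+CF.
Atp6v1b1 was higher in Aged+CF than in Aged by a log2 fold change of 1.20 (SE 0.47, edgeR adjusted p = 0.253), and its unadjusted call was lost without Aged 31 (0.93), Aged 34 (1.18) or Aged+CF 32 (0.96). Atp6v1g2 had 0.60 (SE 0.24, edgeR adjusted p = 0.27), and this call was lost without Aged+CF 32 (0.33) or any of the Aged ovaries (0.54 to 0.64).

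In Aged+CF vs Control, 0 of the 58 genes passed at adjusted p and a fold of 1.5 in edgeR (background 0.179%), and 5 did in DESeq2's Wald test, among them Atp13a3, Atp2b3, Atp2c2 and Atp6v1b1. Without Aged 34, which is in neither group compared here, 2 passed in edgeR (Atp2c2 and Atp6v0d2). Leaving it out renewed the filter, the scaling, the shared estimate of spread and the adjustment of p. At unadjusted p, 5 were higher (background 3.33%), among them Atp13a3, Atp2b3, Atp6v0d2 and Atp6v1g2, and 3 were lower (Atp2c2, Atp6ap1l and Atp6v1b1, background 4.36%). Atp13a3, a polyamine transporter of the P5 class, had 185, 104, 131 and 109 CPM in Control, 200, 165 and 151 in the Aged ovaries, and 215, 265 and 207 in Aged+CF. The Aged+CF ovaries were above all others, with a log2 fold change of 0.80 (SE 0.20, edgeR adjusted p = 0.137) over Control. Atp2c2 had a log2 fold change of -1.82 (SE 0.42, edgeR adjusted p = 0.119). The median over the V-type genes was 0.11, beside 0.01 over the P-type genes. Of the unadjusted calls, that of Atp6v0d2 was lost without Aged+CF 30 (0.72), that of Atp6v1g2 without Aged+CF 32 (0.35) or Control 34 (0.55), and that of Atp6ap1l without Aged+CF 30 or 32 (-0.66 and -1.09) or Control 31 or 32 (-0.88 and -0.81).

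Partner genes were taken from lists written from general knowledge. Of 20 regulators and subunits of P-type pumps, 18 were tested, and 2 were higher and 1 lower in Aged at the fold of 1.5 and adjusted p, beside 5.0% and 6.06% of all genes tested. Fxyd5, a regulator of the Na,K-ATPase, had 7.54 to 11.4 CPM in Control, 15.1 to 26.0 in the Aged ovaries and 13.6 to 14.6 in Aged+CF (log2 fold change with age 1.01, edgeR adjusted p = 0.0124). Nptn, a membrane glycoprotein that binds Ca-ATPases, had a log2 fold change of 0.67 (edgeR adjusted p = 0.0377), and Nkain1, a protein that binds the Na,K-ATPase, of -1.08 (edgeR adjusted p = 0.0209).
Of 16 genes of V-ATPase assembly and regulation, 15 were tested, and 2 were higher and 0 lower, against the same background. Tfeb, the transcription factor named above, had 11.4 to 19.4 CPM in Control, 27.1 to 31.9 in the Aged ovaries and 18.4 to 21 in Aged+CF. Aged stood above all other ovaries (log2 fold change with age 1.01, edgeR adjusted p = 0.00876), and the log2 fold change after CEFFE was -0.55 (edgeR adjusted p = 0.222). Its relatives did not pass the threshold with age. Tfe3 had 62.6 to 69.4 CPM in Control and 50.1 to 81.3 in Aged (log2 fold change -0.07, edgeR adjusted p = 0.797). Mitf had 12.5 to 15.6 CPM in Control and 3.76, 4.66 and 17.1 in Aged (log2 fold change -0.72, edgeR adjusted p = 0.301), so its Aged ovaries lay on both sides of Control. Rnasek, a protein associated with the V-ATPase, had log2 fold changes of 0.68 (edgeR adjusted p = 0.0117) and -0.54 (edgeR adjusted p = 0.169). The median log2 fold change with age over this list was 0.13, against 0.54 for the V-type genes themselves.
Of 40 lysosomal genes, 7 rose and 0 fell by the same rule in Aged vs Control (background 5.0% and 6.06%), with a median log2 fold change of 0.37. They were the proteases Ctsb, Ctsd and Ctss, the lipid-handling Asah1, Npc2 and Ppt1, and the membrane protein Lamp1, which had 511 to 535 CPM in Control, 762 to 914 in the Aged ovaries and 571 to 679 in Aged+CF. In Aged+CF vs Aged the median of the list was -0.16, and 0 genes passed at adjusted p in edgeR, with 2 lower at unadjusted p and the fold of 1.5, a share near the background of 4.05%.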

How the data were processed

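Total RNA of 10 mouse ovaries was sequenced by the authors, who deposited raw read counts per gene and FPKM in a single table. Per the labels' processing notes, TopHat, Cufflinks 2.1.1 and GRCm38.p4 were used, without their roles, and the annotation and the strand setting of counting are not given in the sources used here. In the deposited FPKM, the gene length implied by count and total differed by at most 0.0868% between ovaries.

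Ovaries were grouped by their titles. Separate mice are stated, and no batch is given. Genes were matched by symbol, positions and overlaps come from GENCODE M21 on GRCm38, and promoter windows from RefSeq on GRCm38.p6. The exons of 21 of the 68 genes overlap another gene, for 3 of them on the same strand.

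Counts were analysed with edgeR 4.0 in R 4.3, as filterByExpr, TMM scaling and a quasi-likelihood fit to all 10 ovaries with a mean per group. Adjusted p values are two-sided Benjamini-Hochberg values over the 18956 genes tested. Genes were called at 1.5-fold or more with a p under 0.05, given both adjusted and unadjusted. The SE was derived from the log2 fold change and its F. Levels per ovary relative to Control used log2 CPM with a prior count of 2. The script was tested on simulated data.

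The pump genes and all lists were chosen with earlier results of these data known. Genes named were those called in any comparison with a mean of at least 1 CPM in a group, the most abundant of each class, and alternative isoforms, while partner genes were named when called at adjusted p. Atp13a5, Atp6v1c1, Atp6v1d, Atp6v1f and other remaining members, the lysosomal and marker genes, Tfe3, Mitf and Tcirg1 were named after their values were seen. Alternatives were no filter, DESeq2's size factors, DESeq2 1.42's Wald test, only the compared groups, the replicate number as a block, and each ovary left out, and, added after seeing the data, library totals in place of TMM and both libraries high in oviduct markers left out. No pair of libraries within a group agreed within sampling noise, and pairs across groups were not compared. Adipocyte, smooth muscle, skeletal muscle and surface epithelium markers were also summed. The values of some pump genes are not reported here.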

Additional observations from a re-analysis of the deposited data

Results flagged for a closer look

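In the Control group, Atp6ap1 in ovary 31 (126 CPM) was set apart from the 3 others, which lay between 91.5 and 92.2 CPM. The gap to the nearest of them was 0.977 of the group's range, above Dixon's 95% limit for 4 values. The Control groups of 29 named genes were examined and 1 was marked, where chance marks about 1 in 20.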

How the results depend on the processing

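None of the 31 calls of single genes reversed under the 17 alternatives. Of 527 such values, 451 kept the call and 76 lost it, 20 of them with the replicate number as a block. Some alternatives left out an ovary of the group not compared, so both compared groups stayed whole. What equal numbers mark is not stated. Correlations between ovaries of the same number in different groups ranged from -0.185 to 0.153. Between ovaries of different numbers they ranged from -0.185 to 0.193, so they do not decide whether this block is apt. With this block, 2 pump genes in place of 13 passed at adjusted p in Aged vs Control, 1 V-type gene in place of 13 was higher at any fold, 7 V-type genes in place of 13 were lower in Aged+CF vs Aged at unadjusted p, 1 gene in place of 0 passed in Aged+CF vs Control, and the P-type median there was -0.085 in place of 0.012.
With DESeq2's Wald test, 4 genes passed at adjusted p in Aged+CF vs Aged and 5 in Aged+CF vs Control, and with only the compared groups 3 passed in the latter. Without both libraries high in oviduct markers, 2 passed at adjusted p and 13 in place of 7 at unadjusted p in Aged+CF vs Aged, and the P-type median in Aged+CF vs Control was 0.077. The cause was not tested.
Leaving out single ovaries gave 0 to 4 genes at adjusted p and 6 to 13 at unadjusted p in Aged+CF vs Aged (both highest without Aged 34), 0 to 2 in Aged+CF vs Control (highest without Aged 34), 7 to 16 V-type genes higher in Aged vs Control (lowest without Control 34), and 8 to 15 V-type genes lower in Aged+CF vs Aged (lowest without Aged 33). The V-type median ranged from 0.392 to 0.692 in Aged vs Control and from -0.546 to -0.259 in Aged+CF vs Aged. Genes under about 1 CPM, such as Atp6v1b1 in Aged, rest on few reads.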

Other observations

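Adipocyte markers summed to 21.8 to 158 CPM in Control, 38.8 to 172 in Aged and 44.0 to 53.0 in Aged+CF, smooth muscle markers to 1826 to 2250, 1219 to 2935 and 1173 to 1743 CPM, skeletal muscle markers to 5.14 to 7.54, 4.59 to 8.55 and 4.25 to 5.53 CPM, neuron markers to 30.3 to 41.2, 26.2 to 68.0 and 33.6 to 38.1 CPM, and ovarian surface epithelium markers to 128 to 294, 51.0 to 419 and 177 to 376 CPM. None of these lists had a gene past the adjusted threshold in Aged vs Control by edgeR.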
